A study of Homo sapiens with 12 samples.

Results

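The 10 genes described are the Krüppel-like factors KLF2, KLF3, KLF4, KLF5, KLF6, KLF7, KLF9, KLF10, KLF11 and KLF13, taken by name from a table of 26334 genes. They were chosen with earlier results of these data known. All 10 were among the 12775 genes with enough reads to be tested. They were followed by RNA-seq in 12 libraries of the cell line shA673-1c. It was made from the Ewing sarcoma line A673, and doxycycline switches on a hairpin that targets EWS::FLI1, the fusion oncogene of this tumour. Cells of every group, the 0 h group included, had been kept on doxycycline at 1 µg/ml for 4 days, and were then exposed to 5 µM actinomycin D, which stops transcription, for 0, 1, 2 or 4 h. There were 3 biological replicates of each time. The model is a single engineered line, and cells kept off doxycycline were not analysed here, so no value bears on the effect of the knockdown on KLF genes.

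Krüppel-like factors are zinc finger proteins that bind GC-rich and CACCC elements in promoters and enhancers, sites they share with the SP factors. KLF2, KLF4, KLF5, KLF6 and KLF7 are mainly known as activators that work with the acetyltransferases EP300 and CREBBP, KLF3 as a repressor that recruits CTBP proteins, and KLF9, KLF10, KLF11 and KLF13 as factors that bind the corepressor SIN3A. Several of them are induced quickly by serum, stress or growth factors, and mRNAs of such genes are commonly short-lived. When transcription is blocked, the level of an mRNA follows its loss, so the course asks how long each KLF mRNA lasts.

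Levels are in CPM, the reads of a gene scaled by edgeR to a common library size, and changes are on the log2 scale. Values are relative to the other mRNAs of the same library, because actinomycin D lowers total mRNA and the table has no spike-in. Scaling the libraries to ribosomal protein mRNAs instead moved the median change of all tested genes at 4 h to -0.32, against 0.05 with the scaling used, and made each 4 h fall below larger by a similar amount. The libraries held 9381855 to 10929000 counts each. The hairpin's target FLI1, whose reads include the part held in the fusion transcript, was at 7.42 ± 0.639 CPM at 4 h and 20.5 ± 1.05 CPM at 0 h (SD, n = 3 each). Of 8 Ewing sarcoma markers 7 were tested. At 4 h 3 of them were called lower and none higher, beside 24.6% and 23.3% of all tested genes. The 3 were FLI1, NR0B1 and NKX2-2, with log2 changes of -1.46, -1.10 and -2.09. NKX2-2 was near the floor, at 0.364 ± 0.235 CPM at 4 h and 1.57 ± 0.217 CPM at 0 h, where the filter on low counts favours a fall. The summed level of the markers, 518 to 715 CPM at 4 h and 454 to 628 CPM at 0 h, is mostly CCND1, at 586 ± 102 CPM at 4 h and 494 ± 90.9 CPM at 0 h. CD99 was listed at 0 in every library, which cannot be read as absence of its mRNA, since the annotation used for counting is not given in the sources used here. Of the markers of blood, endothelium, epithelium and liver, HBB was the only one above 5 CPM. HBB was at 10.6 ± 3.73 CPM at 4 h and 22.6 ± 4.35 CPM at 0 h, with CD3E at 0 in every library, and its part in the KLF values was not tested. In such bulk samples, fewer cells of a type and less RNA per cell cannot be told apart.

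The 3′ untranslated regions (UTRs) of the KLF mRNAs are shown first, because AU-rich elements in a 3′ UTR are a known feature of short-lived mRNAs. The sequences come from 1 GENCODE 29 transcript per gene on GRCh38. The core heptamer TATTTAT, which contains the pentamer ATTTA, was searched on the mRNA strand, and 5 of the 10 genes held it, once each. It is printed in capitals in its surroundings, written as DNA letters 5′ to 3′. The windows are at chr19:16327101-16327129 (KLF2, plus strand), chr13:73077177-73077205 (KLF5, plus strand), chr10:3778341-3778369 (KLF6, minus strand), chr2:207075429-207075457 (KLF7, minus strand) and chr2:10052880-10052908 (KLF11, plus strand).
KLF2: actgtgactggTATTTATtggacccagag
KLF5: ttgtttatcttTATTTATtttgtggtaat
KLF6: tatgtttctctTATTTATgccttgaggac
KLF7: gccttctctggTATTTATaatatatcaca
KLF11: ttttagaaaaaTATTTATattgttggtgc

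The KLF2 copy lies close to the coding region, at bases 81 to 87 after the stop codon, while that of KLF7 lies at bases 5767 to 5773 of a 3′ UTR of 7076 bases. No TATTTAT was found in the 3′ UTRs of KLF3, KLF4, KLF9, KLF10 and KLF13. Among the 11587 tested genes with an annotated 3′ UTR, 34.4% held the heptamer, 71.6% held ATTTA and 28.7% held the Pumilio-type motif TGTANATA. Of the 10 KLF genes, 10 held ATTTA and 7 held TGTANATA, the exceptions being KLF4, KLF10 and KLF11. Only KLF2 and KLF4, with 843 and 899 bases, had a 3′ UTR shorter than the median of 1181 bases over those tested genes. The motif counts and shares were not adjusted for 3′ UTR length, so an excess of motifs cannot be read from them. ATTTA density ran between 0.893 per kb in KLF13 and 3.56 per kb in KLF2, against a median of 1.68 per kb over all tested genes with a 3′ UTR. A match of this kind is a string of letters, and binding of a protein there was not measured.

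After 4 h of actinomycin D all 10 KLF mRNAs were called lower than at 0 h at an adjusted p under 0.05, where 24.6% of all tested genes were called lower. KLF9 passed the filter on low counts because of its 0 h libraries, which favours a fall, so the other 9 are also given alone. Because the genes were chosen with earlier results of these data known, their count describes these genes and is no test of the family. The median log2 change of those 9 was -2.07, and of all 10 -1.77, beside 0.05 over all tested genes. KLF2, KLF10, KLF4, KLF6 and KLF5 lay below the 5th percentile of all tested genes, which was -1.79. The falls spanned a wide range, being 20.4-fold for KLF2 and 1.44-fold for KLF13. Libraries of 4 h and 0 h did not overlap for 9 of the 10, and a fall without overlap was seen for 27.5% of all tested genes.

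**Figure D1:**
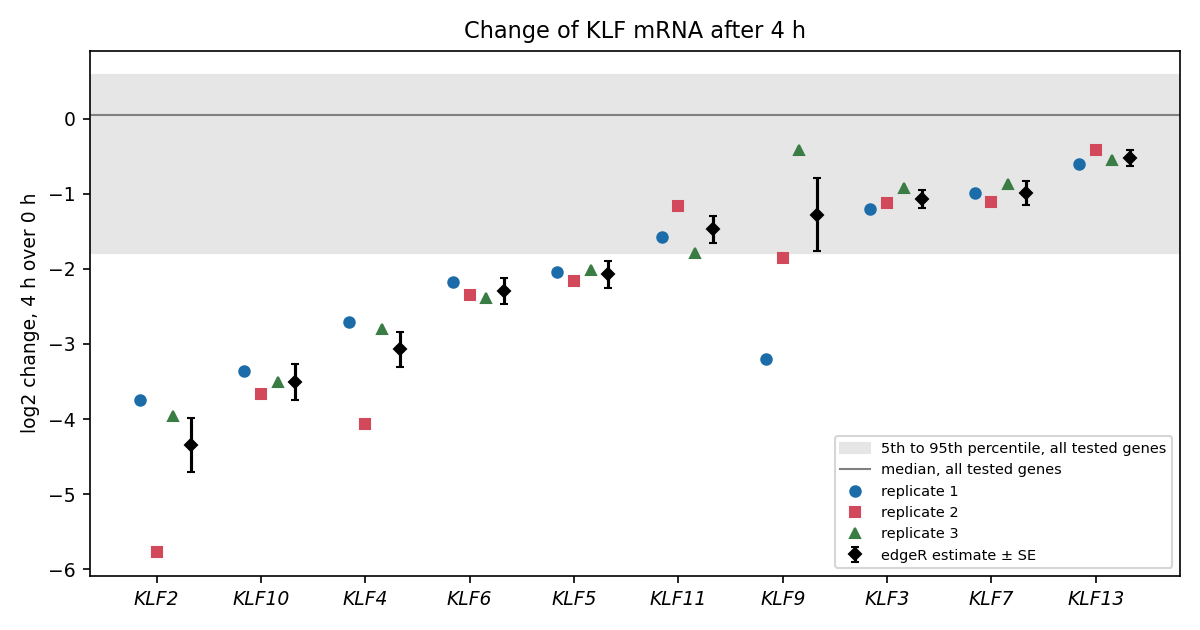
Log2 change of each KLF mRNA at 4 h against 0 h of actinomycin D, with each replicate as a coloured point, the edgeR estimate ± SE as a diamond, and the 5th to 95th percentile and median of all tested genes as a grey band and line. KLF2 lies lowest at -4.35 and KLF13 highest at -0.52, and the replicates of KLF9 are the most scattered, between -3.20 and -0.41.

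Among the activators, KLF2, known for keeping endothelial cells and T lymphocytes quiescent, was lost fastest. In replicates 1, 2 and 3 it stood at 9.16, 11.4 and 6.61 CPM at 0 h, 6.62, 6.69 and 5.04 at 1 h, 2.55, 1.52 and 1.84 at 2 h and 0.680, 0.209 and 0.424 at 4 h. Every 2 h and 4 h library was below every 0 h library, while 1 h and 0 h overlapped. Its log2 change at 4 h was -4.35 ± 0.36 (SE) by edgeR, with an adjusted p of 6.823e-07, lower in 3 of 3 replicates. At 4 h it rested on 6, 2 and 4 reads, and the replicate 2 change of -5.77, from 2 reads at 4 h and 121 at 0 h, has a 95% counting interval of -8.83 to -3.88. Its log2 change was -2.16 at 4 h against 2 h and -2.19 at 2 h against 0 h.

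KLF4, a pluripotency factor that also drives epithelial differentiation, stood at 20.0, 19.3 and 19.1 CPM at 0 h, 18.5, 16.7 and 13.7 at 1 h, 9.79, 7.99 and 9.47 at 2 h and 3.06, 1.15 and 2.76 at 4 h. The 4 time points did not overlap. At 4 h the log2 change was -3.07 ± 0.23 (SE) by edgeR, with an adjusted p of 3.301e-07. This is an 8.41-fold fall. Replicate 2 was the lowest at 4 h, at 1.15 CPM, beside 3.06 and 2.76 CPM in replicates 1 and 3. Its log2 changes were -1.97 at 4 h against 2 h and -1.10 at 2 h against 0 h.

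KLF6, an early injury-response factor described as a tumour suppressor, was the most abundant KLF mRNA per length at 0 h, at 76.8 CPM per kb of transcript. It stood at 380.3, 403 and 289 CPM at 0 h, 221, 222 and 177 at 1 h, 111, 105 and 89.0 at 2 h and 84.3, 79.2 and 55.0 at 4 h. The 1 h libraries lay below every 0 h library, and it was the 1 KLF gene called lower at 1 h, where 1.16% of all tested genes were (log2 change -0.79, edgeR adjusted p = 0.02814). That call ended without any 1 of 5 libraries, 0 h replicates 1 and 2 and 1 h replicates 1, 2 and 3, at adjusted p of 0.06945 to 0.1726, and held with the replicate block (adjusted p = 4.03e-13). Here the replicate block is the edgeR fit with the replicate number as a covariate. At 4 h the log2 change was -2.29 ± 0.17 (SE) by edgeR, with an adjusted p of 2.508e-07. Its log2 change was -0.48 at 4 h against 2 h and -1.81 at 2 h against 0 h. The 4 h against 2 h value missed the threshold (edgeR adjusted p = 0.05175) and passed it with the block (4.662e-08), DESeq2 (0.01877), library totals (0.01852), ribosomal protein scaling (0.006144) and no filter (0.03286).

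KLF7, which supports axon growth in developing neurons, was already low at 2 h. It stood at 63.0, 53.6 and 45.1 CPM at 0 h, 46.1, 36.8 and 36.0 at 1 h, 33.1, 27.6 and 23.7 at 2 h and 31.9, 24.9 and 24.7 at 4 h. The 2 h and 4 h libraries overlapped each other, and both lay below every 0 h library. Its log2 change at 2 h against 0 h was -0.94 ± 0.16 (SE) by edgeR, with an adjusted p of 0.001217. At 4 h against 0 h the change was -0.99 ± 0.16 (SE) by edgeR, with an adjusted p of 0.0002507. Between 4 h and 2 h the log2 change was -0.05 (SE 0.16, edgeR adjusted p = 0.8635), with 2 of 3 replicates lower. Scaled to ribosomal protein mRNAs, that value was -0.29, beside -1.08 at 2 h and -1.36 at 4 h against 0 h.

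KLF5, a factor linked to proliferation of intestinal crypt cells, stood at 18.7, 20.6 and 14.5 CPM at 0 h, 16.2, 14.9 and 13.6 at 1 h, 8.42, 8.60 and 5.99 at 2 h and 4.53, 4.60 and 3.60 at 4 h. The 1 h libraries overlapped those of 0 h, and those of 2 h and 4 h did not. Its log2 change at 4 h was -2.07 ± 0.18 (SE) by edgeR, with an adjusted p of 1.365e-06, and the replicates gave -2.04, -2.16 and -2.01.

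**Figure D2:**
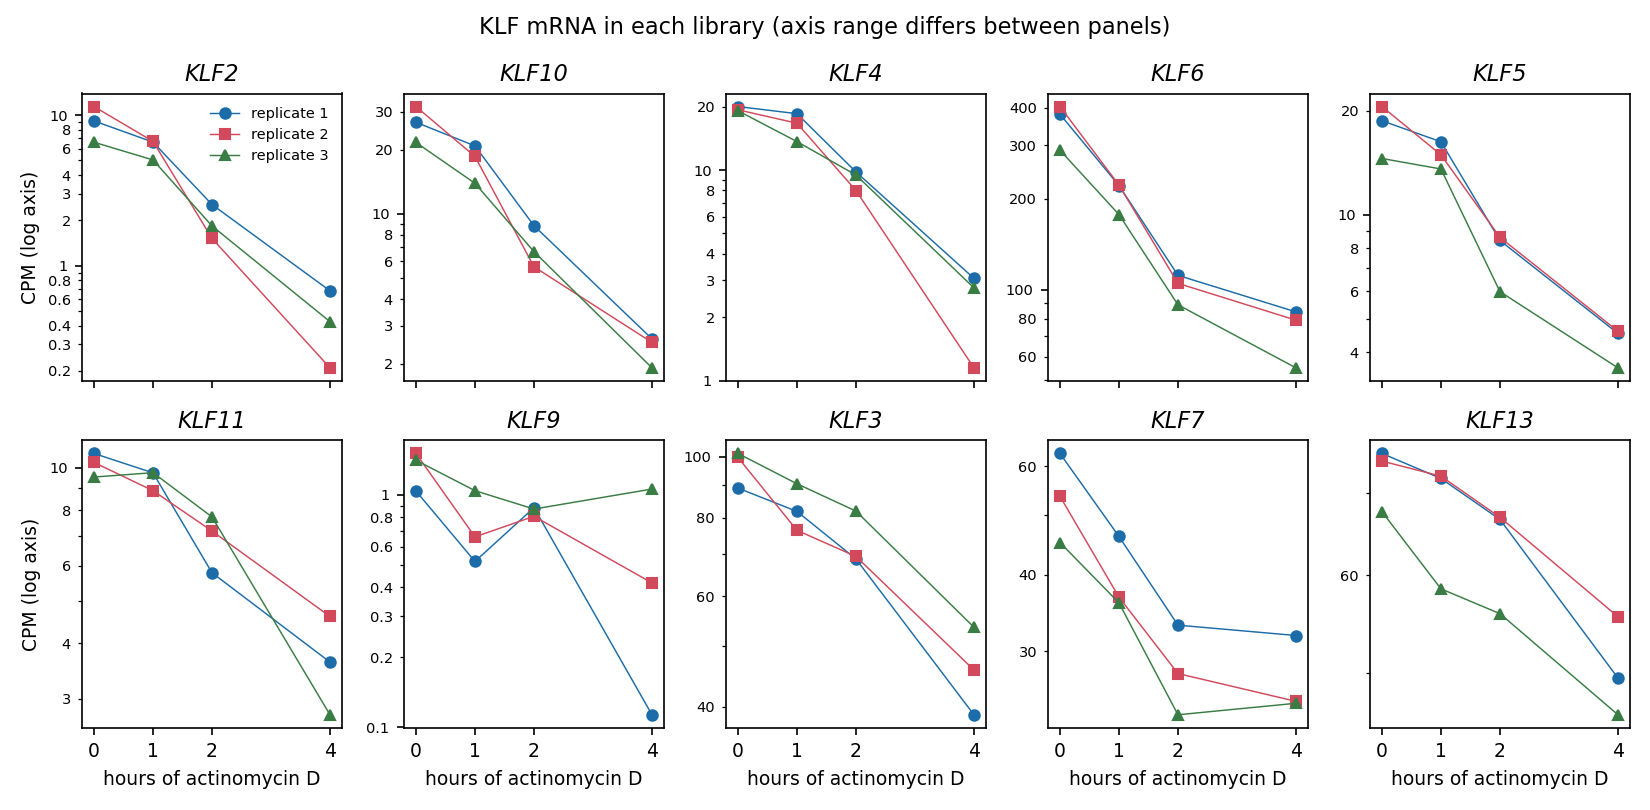
CPM of each KLF mRNA (log axis, range differing between panels) against hours of actinomycin D, with 1 line per replicate. KLF7 lies at 24.7 to 31.9 CPM at 4 h and 23.7 to 33.1 CPM at 2 h in this scaling (log2 change -0.05, or -0.29 with ribosomal protein scaling), while KLF4 lies at 1.15 to 3.06 CPM at 4 h and 7.99 to 9.79 CPM at 2 h.

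Among the factors that bind SIN3A, KLF10, induced early by TGF-beta, was second to KLF2 in its loss. It stood at 26.8, 31.8 and 21.6 CPM at 0 h, 20.8, 18.6 and 13.9 at 1 h, 8.81, 5.67 and 6.67 at 2 h and 2.61, 2.51 and 1.91 at 4 h. No library of a later time reached the level of an earlier one. Its log2 change at 4 h was -3.51 ± 0.24 (SE) by edgeR, with an adjusted p of 1.236e-07, and the fall was 11.4-fold. Replicates gave -3.36, -3.66 and -3.50, so its order with KLF4, at -2.71, -4.07 and -2.79, was not the same in every replicate.

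KLF11, a relative of KLF10 that also responds to TGF-beta, was lost more slowly. It stood at 10.8, 10.3 and 9.52 CPM at 0 h, 9.73, 8.86 and 9.73 at 1 h, 5.78, 7.18 and 7.73 at 2 h and 3.63, 4.60 and 2.76 at 4 h. Libraries of 1 h and 0 h overlapped, while those of 4 h lay below all others. At 4 h its log2 change was -1.47 ± 0.18 (SE) by edgeR, with an adjusted p of 2.257e-05. At 2 h its log2 change of -0.56 passed the threshold (edgeR adjusted p = 0.03446). It no longer did so without 0 h or 2 h replicates 1 or 2 (adjusted p of 0.08315 to 0.1251).

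KLF9, induced by glucocorticoids in many tissues, was close to the detection limit of these libraries. It had 11, 16 and 16 reads at 0 h, 5, 7 and 12 at 1 h, 9, 8 and 9 at 2 h, and 1, 4 and 10 at 4 h. Levels at 4 h were 0.113, 0.418 and 1.06 CPM and at 0 h 1.04, 1.51 and 1.41 CPM, and they overlapped. The log2 change was -1.28 ± 0.48 (SE) by edgeR, with an adjusted p of 0.04439. The call ended under DESeq2 (adjusted p = 0.07272), with no filter (0.05667), with the compared times alone (0.07622) and without 0 h replicates 2 or 3 or 4 h replicates 1 or 2 (0.08739 to 0.1395). The value itself was -2.23 without 4 h replicate 3 and -0.83 without 4 h replicate 1. In replicate 1 a single read at 4 h, against 11 at 0 h, gave -3.20 with a 95% counting interval of -8.62 to -0.41.

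KLF13, which activates the chemokine gene CCL5 in T lymphocytes, changed least. It stood at 75.3, 74.3 and 67.6 CPM at 0 h, 71.9, 72.2 and 58.5 at 1 h, 66.6, 66.9 and 55.9 at 2 h and 49.5, 55.5 and 46.2 at 4 h. Replicate 3 was the lowest at every time, and within each replicate the 4 h level was below the 0 h level. Its log2 change at 4 h was -0.52 ± 0.11 (SE) by edgeR, with an adjusted p of 0.001301, and the 1.44-fold fall left no overlap between 4 h and 0 h.

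KLF3, the CTBP-binding repressor, stood at 89.1, 99.7 and 101 CPM at 0 h, 81.8, 76.4 and 90.6 at 1 h, 68.8, 69.4 and 81.9 at 2 h and 38.9, 45.8 and 53.5 at 4 h. The 4 h libraries lay below all others, and those of 1 h overlapped with 0 h. Its log2 change was -0.40 at 2 h (edgeR adjusted p = 0.02988). At 4 h against 0 h it was -1.07 ± 0.12 (SE) by edgeR, with an adjusted p of 8.376e-06. Between 4 h and 2 h it was -0.67 ± 0.12 (SE) by edgeR, with an adjusted p of 0.001178. The 2 h call ended without 0 h replicates 2 or 3 or 2 h replicates 1 or 2 (adjusted p of 0.07947 to 0.1199). An antisense gene, KLF3-AS1, had 7 to 19 reads per library. The strand setting of the counting is not given in the sources used here, so reads of the pair cannot be told apart.

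By time, 1 of the 10 was called lower at 1 h, and 5 with the replicate block, namely KLF2, KLF3, KLF6, KLF7 and KLF10, where the block called 6.28% of all tested genes lower. At 2 h 8 were called lower, beside 11.7% of all tested genes, and the others were KLF9 and KLF13 with log2 changes of -0.62 and -0.20. KLF13 was called at 2 h with the block (adjusted p = 0.006498), which called 19.5% of all tested genes lower. Between 2 h and 1 h, 5 were called lower, KLF2, KLF4, KLF5, KLF6 and KLF10, beside 5.72% of all tested genes, and 8 with the block, beside 14.3%. The KLF4 call there (edgeR adjusted p = 0.02108) ended without 1 h replicates 1 or 2 or 2 h replicates 2 or 3 (adjusted p of 0.05076 to 0.1083). Between 4 h and 2 h, 7 were called lower, beside 14.2% of all tested genes, and the 3 others were KLF6, KLF7 and KLF9. The block called 8, KLF6 being the added one, beside 22.3%. The KLF13 call there (adjusted p = 0.04169) ended without 2 h replicates 1 or 2 or 4 h replicates 1 or 3 (adjusted p of 0.1102 to 0.1401), and with the compared times alone (adjusted p = 0.05704). None of the 10 was called higher in edgeR's comparisons with 0 h at 1, 2 and 4 h, where 0.172%, 3.39% and 23.3% of all tested genes were, or at 2 h against 1 h and 4 h against 2 h, where 1.46% and 10.2% were. The comparisons with 0 h share the 0 h libraries.

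The shape of each course was described by its change of rate. The change of rate is the log2 change at 4 h against 2 h minus that at 2 h against 0 h, so a positive value means that loss slowed. KLF6 had 1.33 and KLF7 0.88, while KLF4 had -0.87. Without the block none of the 10 passed the threshold (edgeR adjusted p = 0.06933, 0.2122 and 0.3679 for these 3 genes), where 0.227% of all tested genes were called lower and 0.384% higher. With the block, KLF6 (1.32, adjusted p = 1.618e-10) and KLF7 (0.89, adjusted p = 4.118e-05) were called higher, beside 7.39% of all tested genes, and KLF4 (-0.87, adjusted p = 0.04966) lower, beside 5.46%. The calls of KLF6 and KLF7 held when the libraries of any 1 replicate number were left out of the block fit, and that of KLF4 was lost each time. No test of 1 KLF gene against another was made.

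**Figure D3:**
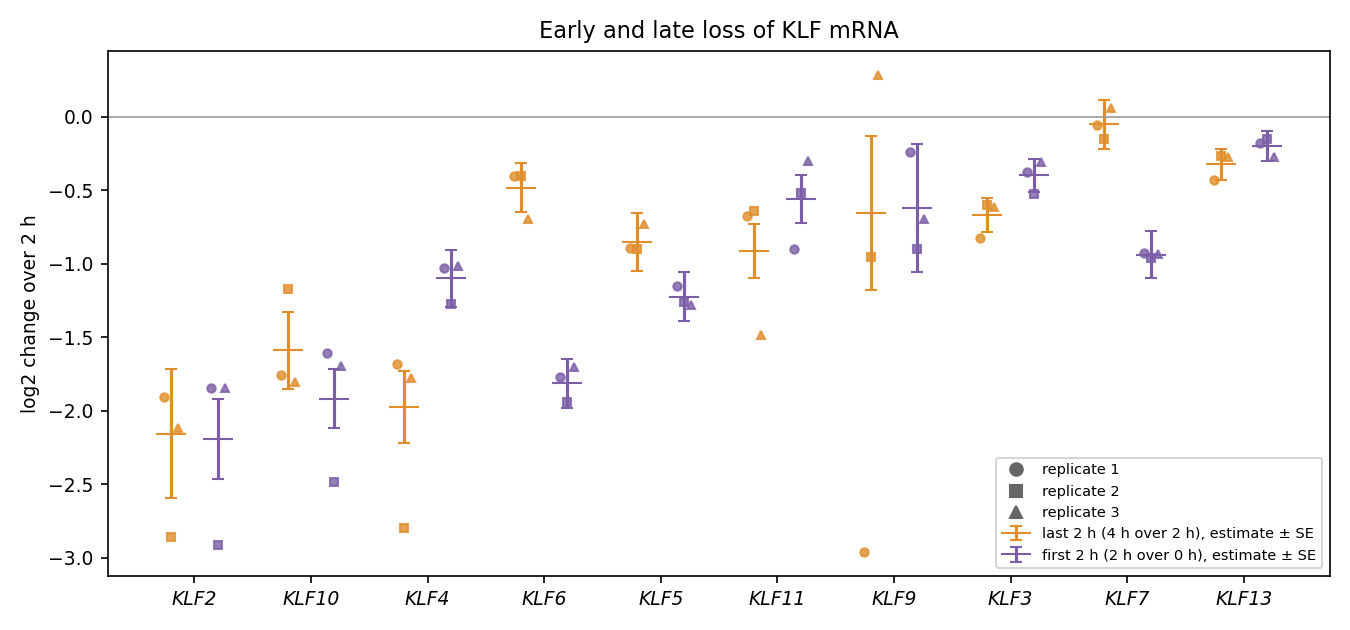
Log2 change of each KLF mRNA over the last 2 h (4 h over 2 h) beside that over the first 2 h (2 h over 0 h), with the edgeR estimate ± SE as bars and each replicate as a point. KLF6 and KLF7 had smaller changes in the last 2 h (-0.48 and -0.05) than in the first 2 h (-1.81 and -0.94), and KLF4 a larger one in the last 2 h (-1.97 beside -1.10).

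An apparent half-life was taken from the slope of log2 level per hour over all 12 libraries, which treats the loss as constant and is relative to the library. All 10 slopes were called negative, beside 25.5% of all tested genes (25.3% were called positive). Without KLF9, whose filter favoured a fall, 9 of 9 were, and their median slope was -0.55 per hour, beside 0.02 over all tested genes. KLF2 had the shortest apparent half-life at 0.919 h (95% interval 0.779 to 1.12 h), followed by KLF10 at 1.10 h (95% interval 0.961 to 1.28 h) and KLF4 at 1.33 h (95% interval 1.11 to 1.65 h). The intervals of neighbours in this order overlap. KLF6 had 1.73 h (95% interval 1.43 to 2.19 h), KLF5 1.82 h (95% interval 1.52 to 2.27 h), and KLF11 had 2.66 h (95% interval 2.11 to 3.61 h). KLF3 had 3.76 h (95% interval 3.07 to 4.86 h) and KLF7 4.03 h (95% interval 2.89 to 6.67 h). The values of KLF6, KLF7 and KLF4 average over a rate whose change was called with the block. That contrast leaves out the 1 h group. KLF2 and KLF10 had log2 changes of -0.57 and -0.59 at 1 h against 0 h, and -1.63 and -1.33 at 2 h against 1 h. For KLF3, KLF9 and KLF13 the fall was not larger in the second hour with the scaling used. With ribosomal protein scaling it was larger there for KLF3 (-0.21, then -0.32) and KLF13 (-0.10, then -0.24). KLF9 did not fall in the second hour in either scaling (0.18 and 0.04). The difference between these hours was not tested. KLF13 had the longest apparent half-life at 7.65 h (95% interval 5.47 to 12.8 h). The slope of KLF9 gave 3.40 h (95% interval 1.85 to 21.9 h), an interval too wide to place it, and its call (adjusted p = 0.04637) ended under DESeq2 (0.06741), with no filter (0.06497) and without any 1 of 9 libraries (0.05125 to 0.1569). That slope was -0.46 per hour without 4 h replicate 3 and -0.20 without 4 h replicate 1, beside -0.29 with all libraries. Scaled to ribosomal protein mRNAs, the half-lives were shorter, at 0.852 h for KLF2 and 4.34 h for KLF13, which moved the KLF13 value by over 1.5 times.

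**Figure D4:**
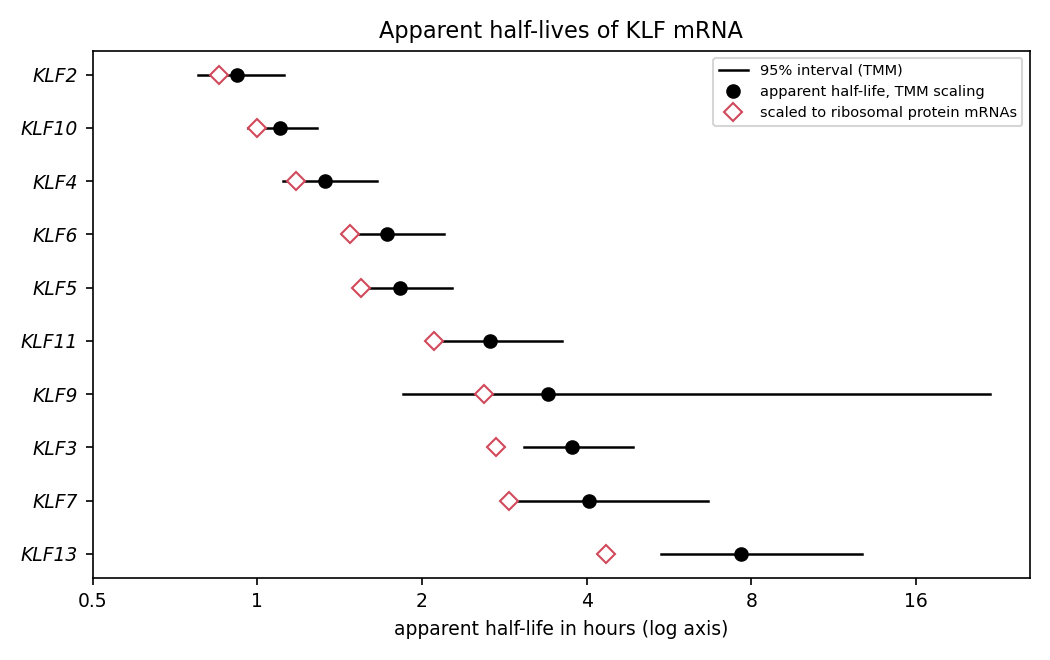
Apparent half-life in hours of each KLF mRNA on a log axis with its 95% interval, from the slope over 0, 1, 2 and 4 h, and open diamonds for ribosomal protein scaling. Values run between 0.919 h for KLF2 and 7.65 h for KLF13, and the interval of KLF9 reaches 21.9 h.

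Neighbours in the order of the 4 h change were set against each other by the ranges of their 3 replicates. The ranges overlapped for KLF10 and KLF4, KLF11 and KLF9, KLF9 and KLF3, and KLF3 and KLF7. They did not overlap for KLF2 and KLF10, KLF4 and KLF6, KLF6 and KLF5, KLF5 and KLF11, or KLF7 and KLF13. Some gaps were small, with nearest replicates at -2.17 and -2.16 for KLF6 and KLF5 and at -3.75 and -3.66 for KLF2 and KLF10. The ranges leave out the pairing of replicates, in which KLF3 was below KLF7 in 3 of 3. The order of these genes was not tested. Per length at 0 h, KLF6 (76.8 CPM per kb) was followed by KLF3 (18.9), KLF13 (10.6), KLF10 (8.63), KLF4 (6.93), KLF7 (6.45), KLF5 (5.03), KLF2 (4.49), KLF11 (2.53) and KLF9 (0.255).

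Set beside the sequences above, the KLF genes with the heptamer were KLF2 and KLF7, which had 4 h log2 changes of -4.35 and -0.99, as well as KLF5, KLF6 and KLF11, at -2.07, -2.29 and -1.47. KLF10 and KLF4, at -3.51 and -3.07, have no heptamer. Over the 11587 tested genes with an annotated 3′ UTR, the median 4 h log2 change was -0.06 with the heptamer and 0.12 without it, with median 3′ UTR lengths of 2440 and 768 bases.

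**Figure D5:**
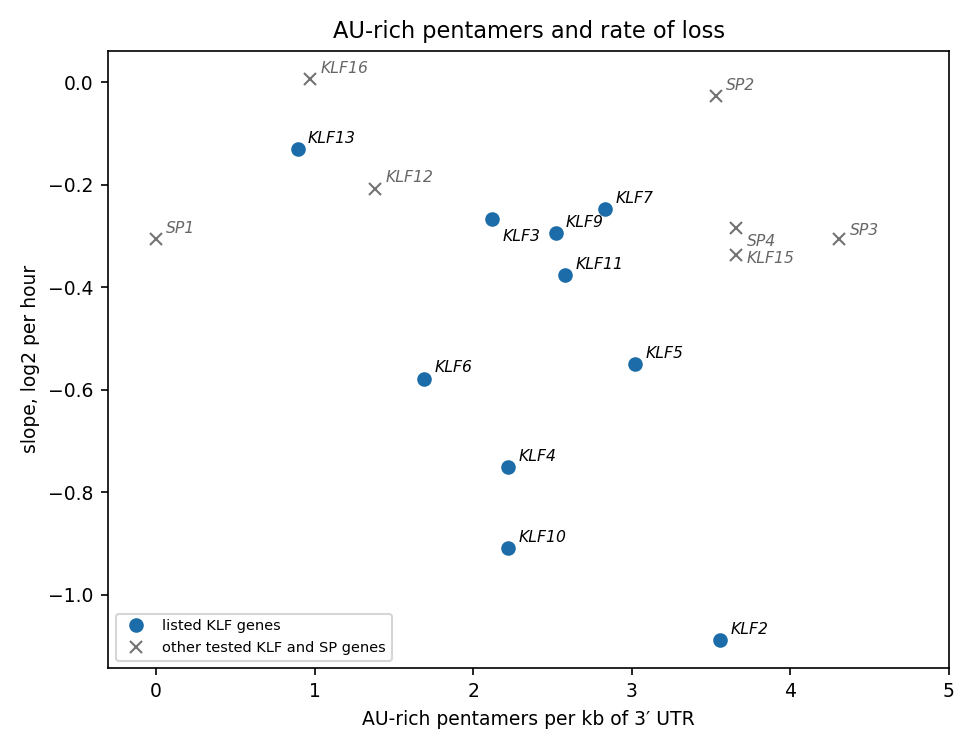
Slope of log2 level per hour against AU-rich pentamers per kb of 3′ UTR for the listed KLF genes and the other tested KLF and SP genes. KLF2 lies at 3.56 per kb with a slope of -1.09, while SP2 (3.53 per kb), KLF15 (3.66 per kb) and SP3 (4.31 per kb) have slopes of -0.03, -0.34 and -0.31. KLF15 had at most 17 reads in a library. KLF10 and KLF4 share a density of 2.22 per kb, with slopes of -0.91 and -0.75.

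Genes with the most similar form of course were sought among those with at least 5 CPM on average, by Pearson correlation of log2 CPM over the 12 libraries. Such values are a description, since all points share the same libraries and times, and r reads the form of a course and not its size. KLF2 was closest to ZNF48, NFIL3 and KDM2A (r of 0.993, 0.993 and 0.991), whose 4 h log2 changes were -2.70, -3.40 and -1.46 beside -4.35 for KLF2, and 1170 genes exceeded an r of 0.9. KLF10 was closest to KDM2A, ISG20L2 and NEDD9 (r of 0.993 each), and KLF4 to BAMBI, CCDC71L and FBXO42 (r of 0.989, 0.987 and 0.987). KLF6 was closest to PPP1R15A, ZBTB39 and ZNF473 (r of 0.993, 0.993 and 0.991). For KLF7, 87 genes exceeded an r of 0.9, led by ZNF3, RNF169 and SPRY4 (r of 0.986, 0.973 and 0.970). KLF5 was closest to ZNF800, TRAF6 and TFAP2C, KLF3 to MBD4, SMAD5 and NFE2L2, KLF11 to METTL16, ZCCHC8 and GPATCH8, and KLF13 to SYS1, ALDH1B1 and NOP2, at an r of 0.975 to 0.991. KLF9 had its closest courses in C1orf131, TM2D2 and ZNF45 (r of 0.939, 0.914 and 0.907).

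For the related genes that follow, errors of CPM are SD over 3 replicates and errors of log2 changes are SE, and p-values are edgeR's. The counts of each list at 4 h stand beside 24.6% of all tested genes called lower and 23.3% called higher. With the block these shares were 30.8% and 34.8%. The shares of all genes called with ribosomal protein scaling are not given here. Of the 8 other KLF genes, 7 were in the table and 3 were tested at 4 h, of which 1 was called lower. KLF12, a CTBP-binding repressor like KLF3, was at 10.1 ± 1.28 CPM at 4 h and 17.5 ± 2.34 CPM at 0 h, which is -0.79 ± 0.13 (SE) on the log2 scale at an edgeR adjusted p of 0.0002642. KLF15 had a log2 change of -1.29 ± 0.55 at an adjusted p of 0.07144 by edgeR, called with the block (adjusted p = 0.03215). It had 9, 11 and 12 reads at 0 h and 2, 6 and 3 at 4 h. Its 4 h libraries did not carry it through the filter on low counts, which favours a fall. The log2 change of KLF16 was 0.07 ± 0.12 at an adjusted p of 0.6308, and it turned to -0.30 with ribosomal protein scaling. Of 9 SP genes, which bind the same GC boxes, 4 were tested and 3 were called lower, beside 24.6% of all tested genes, SP3 at -1.23 ± 0.10 at an adjusted p of 7.503e-07, SP1 at -1.17 ± 0.17 at an adjusted p of 0.0001279 and SP4 at -1.14 ± 0.29 at an adjusted p of 0.00565 by edgeR. Their 4 h medians were -0.79 for the other KLF genes, KLF15 included, and -1.16 for the SP genes, against 0.05 over all tested genes.

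Of 9 corepressors and coactivators, all tested, 4 were called lower and 3 higher at 4 h, beside 24.6% and 23.3% of all tested genes, and their median was 0.14. Scaled to ribosomal protein mRNAs, 5 were lower and none higher, with a median of -0.23 beside -0.32 over all tested genes in that scaling. SIN3A, the corepressor bound by KLF9, KLF10, KLF11 and KLF13, was at 14.8 ± 2.76 CPM at 4 h and 79.2 ± 7.84 CPM at 0 h, which is -2.41 ± 0.15 (SE) on the log2 scale at an edgeR adjusted p of 6.495e-08. The acetyltransferase genes EP300 and CREBBP had log2 changes of -1.66 ± 0.08 at an adjusted p of 6.945e-09 and -1.60 ± 0.08 at an adjusted p of 6.919e-09. Of 8 ubiquitin ligases that act on KLF proteins, 6 were lower and none higher, beside 24.6% and 23.3% of all tested genes. The lower ones include FBXO32, which was near the floor, at 0.327 ± 0.122 CPM at 4 h and 1.17 ± 0.225 CPM at 0 h. With the block 7 were lower, beside 30.8% of all tested genes. The median change of the 8 was -0.72. SIAH1 was at 2.56 ± 0.383 CPM at 4 h and 23.1 ± 2.36 CPM at 0 h, which is -3.17 ± 0.16 (SE) on the log2 scale at an edgeR adjusted p of 1.032e-08. BTRC had a log2 change of -0.72 ± 0.08 at an adjusted p of 9.807e-06 and FBXW7 one of -1.04 ± 0.16 at an adjusted p of 0.0001302.

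Upstream of KLF2 and KLF4, 2 of 6 genes of the MEF2 kinase arm were called lower and none higher, beside 24.6% and 23.3% of all tested genes, and their median was -0.02. With ribosomal protein scaling 4 of the 6 were lower, and the median was -0.39, beside -0.32 over all tested genes in that scaling. The 2 lower ones were the kinase gene MAPK7 at a log2 change of -1.21 ± 0.12 at an adjusted p of 4.504e-06 and the transcription factor gene MEF2D at -0.87 ± 0.13 at an adjusted p of 0.0001525, while the kinase gene MAP3K3 had 0.24 ± 0.10 at an adjusted p of 0.07707. The MAP3K3 value was called higher with the block (adjusted p = 0.0002143) and turned to -0.13 with ribosomal protein scaling. Of 7 genes of the TGF-beta and glucocorticoid inputs, 5 were lower and none higher, beside 24.6% and 23.3% of all tested genes. With the block 6 were lower, beside 30.8% of all tested genes. The median change of the 7 was -0.52. SMAD7, the inhibitory SMAD, was at 2.63 ± 0.107 CPM at 4 h and 13.9 ± 1.00 CPM at 0 h, which is -2.40 ± 0.18 (SE) on the log2 scale at an edgeR adjusted p of 2.965e-07. The glucocorticoid receptor gene NR3C1 had a log2 change of -1.15 ± 0.10 at an adjusted p of 9.845e-07 and SMAD4 one of -0.87 ± 0.08 at an adjusted p of 2.457e-06. Of 16 genes described elsewhere as KLF targets, 14 were tested and their median was -0.18. Of these 14, 5 were lower and 2 higher, beside 24.6% and 23.3% of all tested genes. With the block 6 were lower and 4 higher, beside 30.8% and 34.8%. With ribosomal protein scaling 7 were lower and none higher, with a median of -0.55 beside -0.32 over all tested genes in that scaling. The named ones were CEBPB, a regulator of fat cell formation, at -1.95 ± 0.18 at an adjusted p of 2.2e-06, TXNIP, a thioredoxin inhibitor, at -0.87 ± 0.08 at an adjusted p of 2.455e-06 and S1PR1, a sphingosine phosphate receptor, at -1.75 ± 0.17 at an adjusted p of 3.999e-06. Regulation of these genes by KLF proteins was not measured.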

How the data were processed

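Per the labels' protocols, polyadenylated RNA of 12 libraries came from a Nucleospin RNA kit and was prepared with Illumina TruSeq stranded reagents. The submitters' processing notes name FastQC, STAR and the build hg19, with no versions. The counter, the annotation and the strand setting are not given in the sources used here. The authors deposited raw read counts per gene symbol.

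Counts were tested with edgeR 4.0.16 (R 4.3.3): filterByExpr on the time groups (minimum count 10), TMM scaling and the quasi-likelihood test over all 12 libraries, with Benjamini-Hochberg adjustment over 12775 genes and a threshold of 0.05. SE is the absolute log2 change over the square root of F. Per-replicate changes are log2 ratios of CPM without a pseudocount. Alternatives were DESeq2 1.42.0, library totals, ribosomal protein scaling (80 genes), no filter, the compared times alone, the replicate block and left-out libraries. The edgeR fit without the block was also run on simulated counts, and its outcome is not used here. Intervals of read counts cover counting error only.

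Replicate numbers, taken from the labels, pair the libraries. Deviations from group means correlated at 0.263 to 0.649 among libraries with the same number and at -0.501 to 0.16 between numbers. No replicates were identical (chi-square per degree of freedom 4.13 to 15.2).

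The KLF genes and gene lists were chosen with earlier results of these data known. Besides the KLF genes, the text names FLI1, up to 3 genes per list with the smallest adjusted p at 4 h, and the 3 genes most correlated with each KLF gene (log2 CPM, prior count 2). Marker genes were named from the marker lists. 3′ UTRs came from GENCODE 29 on GRCh38, and the deposited counts carry no coordinates.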

Additional observations from a re-analysis of the deposited data

Results flagged for a closer look

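In the edgeR fit with the replicate block, the test of the difference between the log2 change at 4 h against 2 h and that at 2 h against 0 h passed the threshold for 3 KLF genes. For KLF6 the difference was 1.316 (adjusted p = 1.618e-10), for KLF7 0.8876 (adjusted p = 4.118e-05) and for KLF4 -0.8738 (adjusted p = 0.04966). A positive difference is a loss that slowed. In that fit 7.39% of all tested genes were called higher and 5.46% lower. Without the block none of the 3 passed in edgeR (adjusted p = 0.06933, 0.2122 and 0.3679 for KLF6, KLF7 and KLF4). The KLF4 call was lost in each block fit without 1 replicate number. Both intervals share the 2 h libraries.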

How the results depend on the processing

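At 4 h and for the slope, the 10 lower calls stood at 9 to 10 with 1 library left out, KLF9 being the call that was lost. At 1 h the count of 1 became 5 with the replicate block, 0 with the compared times alone, 0 to 1 with 1 library left out and 3 to 5 in the block without 1 replicate number. At 2 h against 1 h it became 8 with the block, and beyond the calls given above the block changed no other call of a KLF gene except those of KLF3, KLF7 and KLF11 there. For the change of rate, 1 was lower with the block, and higher calls were 1 under DESeq2, 1 with no filter, 2 with the block, 0 to 1 with 1 library left out and 2 in the block without 1 replicate number. Over all genes the block moved lower calls to 802 at 1 h (148 without it), 2496 at 2 h (1496), 1827 at 2 h against 1 h (731), 2851 at 4 h against 2 h (1817) and 697 for the change of rate (29).

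In the alternatives run, the sign turned for the following values. With 1 library left out, KLF13 at 1 h lay between -0.1555 and 0.0009239 (without 1 h replicate 3). KLF9 at 2 h against 1 h was -0.02787 in the block without replicate 1. KLF7 at 4 h against 2 h lay between -0.1818 and 0.08067, and was above 0 without 2 h replicate 1 or 4 h replicates 2 or 3. For the change of rate, KLF2 was -0.01172 under DESeq2, -0.0008577 with library totals, -0.0528 with ribosomal protein scaling, -0.4029 to 0.4907 with 1 library left out, below 0 for 4 of them, and -0.1285 in the block without replicate 2. KLF9 was -0.9905 to 0.4132 with 1 library left out, above 0 for 4 of them, and 0.6035 in the block without replicate 1. KLF10 was -0.1264 in the block without replicate 2, and KLF11 0.05157 without replicate 3. The cause was not tested. Leaving out replicate numbers within the block was chosen after seeing the data. Depth limits KLF2 at 4 h and KLF9 throughout.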

Other observations

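Of the KLF and SP genes outside the tested set, KLF14, SP7, SP8 and SP9 had no read in any of the 12 libraries, which allows up to 0.27 to 0.32 CPM per library (3 reads). KLF1, KLF8 and SP5 had at most 1 read, and SP6 at most 2. KLF17 had 1 to 13 reads in every library and did not pass the filter.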
